A study of Drosophila melanogaster with 2 samples.

Results

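The peaks described here are those sites of the fly protein Asciz that lay just upstream of a unidirectional promoter. They were chosen by position alone: the nearest annotated transcription start site (TSS) belonged to a protein-coding gene, the summit lay 100 to 500 bp upstream of it, and no protein-coding TSS of the opposite strand lay within 500 bp of the summit. Of 5085 peaks that the authors kept in their optimal list, 805 met this rule, or 15.8%, and they were assigned to 718 genes. The list was thresholded by the irreproducible discovery rate and its peaks are called reproducible below, although 28 of the 805 had no region in the list of 1 library. In what follows they are called upstream promoter peaks.

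Asciz, whose gene is also listed as CG14962, was mapped by ChIP-seq, which sequences DNA recovered with a precipitated chromatin protein, from whole Drosophila melanogaster embryos, 0 to 24 h old and of mixed sex. The line (strain CG14962-GFP) stably expressed Asciz tagged C-terminally with GFP, and its chromatin, sheared to 200 to 800 bp, was precipitated through the GFP. All samples were of 1 group: biological replicate 1 and biological replicate 3, 2 libraries that each came from a separate biosample. With no second group, no test between conditions could be made, so every value below is a description of peaks, and peaks of 1 list are not replicates of each other. Since whole embryos of all stages were pooled, binding in fewer cells and weaker binding per cell cannot be told apart. The files hold peak lists and no read counts, so the depth is unknown and signals carry no counting error here.

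Asciz is a zinc finger transcription factor, known in flies and vertebrates for switching on the gene of the dynein light chain LC8, a small hub protein that binds many partners besides the dynein motor. LC8 in turn binds Asciz and restrains it, which closes a feedback loop. The fly LC8 gene is ctp (cut up). At promoters, RNA polymerase II is assembled over the core promoter next to the TSS, and many sequence-specific factors bind in the nucleosome-poor DNA upstream of it. Fly promoters fall into broad kinds: those of housekeeping genes often carry the DNA replication-related element (DRE) or the motif bound by M1BP, whereas regulated promoters more often carry an initiator, a TATA box or GAGA repeats.

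The windows below show the DNA under the summits, as 101 bp centred on the summit and read 5′ to 3′ along the gene, from the release 6 assembly (dm6). Capitals mark runs of at least 6 A or T bases. The first is that of ctp, the highest peak, followed by the next 5 windows by signal among those that overlapped no annotated UTR and could be shown.
ctp, chrX:4688030-4688130, plus strand: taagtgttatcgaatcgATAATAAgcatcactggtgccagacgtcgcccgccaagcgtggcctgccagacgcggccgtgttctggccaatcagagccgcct
CG18549, chr3R:12449133-12449233, plus strand: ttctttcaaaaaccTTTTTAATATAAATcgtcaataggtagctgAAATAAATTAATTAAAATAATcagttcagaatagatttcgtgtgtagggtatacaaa
CG31145, chr3R:23669799-23669899, minus strand: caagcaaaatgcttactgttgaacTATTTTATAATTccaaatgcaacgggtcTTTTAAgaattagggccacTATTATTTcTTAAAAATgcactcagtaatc
ph-p, chrX:2137276-2137376, minus strand: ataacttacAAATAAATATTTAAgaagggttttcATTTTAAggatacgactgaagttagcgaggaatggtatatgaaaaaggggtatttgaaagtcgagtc
CG1635, chr3R:31588484-31588584, plus strand: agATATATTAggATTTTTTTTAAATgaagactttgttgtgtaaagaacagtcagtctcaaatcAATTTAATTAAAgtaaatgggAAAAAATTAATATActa
RluA-1, chr2L:10474483-10474583, minus strand: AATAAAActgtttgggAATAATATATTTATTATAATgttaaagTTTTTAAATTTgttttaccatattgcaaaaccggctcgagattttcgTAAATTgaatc

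The ctp window held 41.6% A+T and a single run of 7 A/T bases, and 2 of the 805 windows had a lower A+T content. The 9-letter word TGCCAGACG occurred in it 2 times, starting at bases 35 and 63 of the window, 28 bp apart. That word was picked after the window had been read, as the longest that recurred. On either strand it was found in 1 upstream promoter window, that of ctp, and in 7 windows of all 5085 peaks. The other 5 windows held between 68.3% (CG31145 and ph-p) and 78.2% A+T (CG1635), and each had an A/T run of 12 bases or more, with the longest, 21 bases, at CG18549.

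To show the range among strong peaks, further windows of high and low A+T content are given next. Beside ctp, they were the extremes among the 75 windows that overlapped no annotated UTR and could be shown, of the 100 upstream promoter peaks of highest signal. Windows at Glyp (85.1%) and cu (86.1%) were as rich in A+T and are not shown. Those of msi and RapGAP1 held 86.1% and 85.1% A+T, and those of fkh and CG9743 held 38.6% and 48.5%.
msi, chr3R:25515820-25515920, plus strand: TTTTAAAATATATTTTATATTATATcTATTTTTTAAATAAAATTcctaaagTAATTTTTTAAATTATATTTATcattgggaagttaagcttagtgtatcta
RapGAP1, chr2L:7530711-7530811, minus strand: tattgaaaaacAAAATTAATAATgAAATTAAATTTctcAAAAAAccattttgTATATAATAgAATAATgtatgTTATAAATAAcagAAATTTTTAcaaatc
fkh, chr3R:28585454-28585554, minus strand: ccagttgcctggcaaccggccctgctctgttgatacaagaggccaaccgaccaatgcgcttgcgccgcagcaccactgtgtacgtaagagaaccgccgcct
CG9743, chr3R:30203324-30203424, minus strand: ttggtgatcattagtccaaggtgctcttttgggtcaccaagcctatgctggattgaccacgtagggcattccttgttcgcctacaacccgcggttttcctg

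The msi window (musashi, an RNA-binding protein of neural progenitors) had 65 of its 101 bases in A/T runs, and its longest run was 25 bases. In the fkh window (fork head, a transcription factor of the gut and salivary glands) no run of 6 was found. Windows with less than 50% A+T were few, 22 of 805 or 2.73%, beside 4.68% of all peaks. It was 22.7% for unidirectional promoter peaks within 100 bp of the TSS, 5.43% for those 100 to 500 bp downstream of it and 4.96% for peaks with TSSs of both strands nearby.

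Upstream of the TSS, summits were 4.38 times as frequent as at the same distances downstream, where 184 peaks lay. A further 299 lay within 100 bp of the TSS on either side (core peaks), and 403 had TSSs of both strands within 500 bp (bidirectional peaks). The upstream class thus held 62.5% of the 1288 summits at unidirectional promoters. When the 5085 strongest regions of each library were classed in the same way, 802 lay upstream in replicate 1 and 798 in replicate 3, and the ratio of upstream to downstream was 4.53 and 3.89. The count of core peaks differed more between the libraries, 231 in replicate 1 and 394 in replicate 3.

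The sequence that meets the rule came to 4.62 Mb, 3.45% of the 6 chromosome arms used. It held 174 summits per Mb, which was 4.59 times the 38.0 per Mb over all sequence. Core sequence held 105 per Mb, downstream sequence 31.0 and bidirectional promoter sequence 242. Among 24914 weaker regions of the pooled list, which the authors listed as peaks and background together, the order was another one: 358 per Mb in upstream sequence, or 1.92 times the 186 per Mb over all sequence, and 438 per Mb in core sequence. Of 13945 protein-coding genes, 10198 had sequence that met the rule, and 7.04% of those had an upstream promoter peak.

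**Figure D1:**
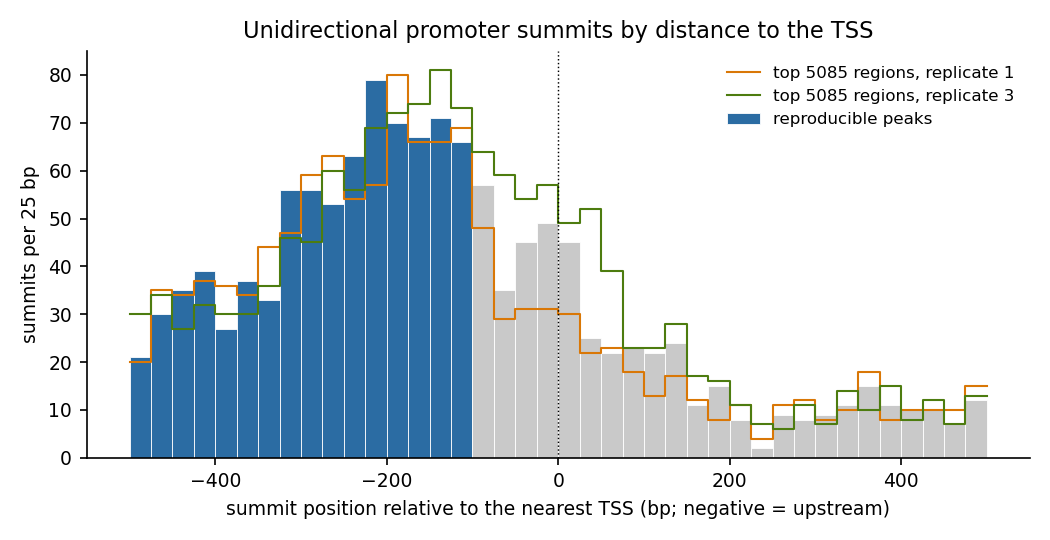
Number of summits per 25 bp (y axis) by position relative to the nearest TSS (x axis, bp) at unidirectional promoters; bars are the reproducible peaks, blue where they meet the rule, and lines are the 5085 strongest regions of each library. Summits are most frequent between about 100 and 300 bp upstream in all 3 lists, and the 2 libraries differ most within 100 bp of the TSS.

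Within the range, the median summit lay 245 bp upstream of its TSS (quartiles 172 and 343 bp). In the libraries' own lists the medians were 254 bp in replicate 1 and 238 bp in replicate 3. Of the 805 peaks, 524 lay under 300 bp from the TSS and 281 at 300 bp or more. Among the closer ones 21.4% belonged to the 500 peaks of highest signal, and among the farther ones 10.3%. The share was highest, 25.4%, between 150 and 199 bp and lowest between 400 and 449 bp, at 5.48%. Median signals differed less, 254 for the closer and 238 for the farther peaks.

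Each library's own summit under these peaks was read from its list. Those regions were picked by overlap with the peak, and the summits used by the rule come from the same libraries. Closeness was thus in part fixed in advance, and the shares are no independent check. The summit in replicate 1 lay within 50 bp of the summit in the reproducible list for 80.1% of 779 peaks, and that in replicate 3 for 83.6% of 803. In each library 95% of these summits were themselves 100 to 500 bp upstream of the TSS. Between the libraries the summits lay a median of 25 bp apart, and 71.8% of 777 pairs were within 50 bp. The rule's borders cut through a continuous distribution: 7 peaks lay 100 or 101 bp upstream, the highest at CG6770 with a pooled signal of 257. Just outside, at 98 or 99 bp, were 5 peaks, among them Hsp83 (834), the Hsp90 gene, Reck (391) and 1 peak of larp (208). At the far border the outermost peak lay at 498 bp, and 3 peaks lay at 501 bp, at CG17896 (476), CG43901 (193) and GstE6 (171).

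The signal is the authors' value for each peak in the list pooled over both libraries, and was used only to rank and describe peaks. Upstream promoter peaks had a median signal of 248 (quartiles 178 and 437), against 200 for all other peaks, a ratio of 1.24. Core peaks had a median of 184, downstream peaks 179 and bidirectional peaks 238. Ranked within each library alone, the ratio of upstream to other peaks was 1.22 in replicate 1 and 1.22 in replicate 3. Of the 805 peaks, 141 were among the 500 of highest signal, or 17.5%, beside 9.83% of all peaks, 7.36% of core, 7.07% of downstream and 16.4% of bidirectional peaks.

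Down the ranking the upstream class thinned out. Its share was 28.2% in the first 500 ranks, 22.6% between ranks 501 and 1000, 15.2% between ranks 2001 and 2500, 10.4% between ranks 4501 and 5000, and 6.64% of the weaker pooled regions. Core peaks went the other way, from 4.4% in the first block of 500 to 8.8% in the last. Bidirectional peaks fell from 13.2% to 4.6% between the same blocks.

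**Figure D2:**
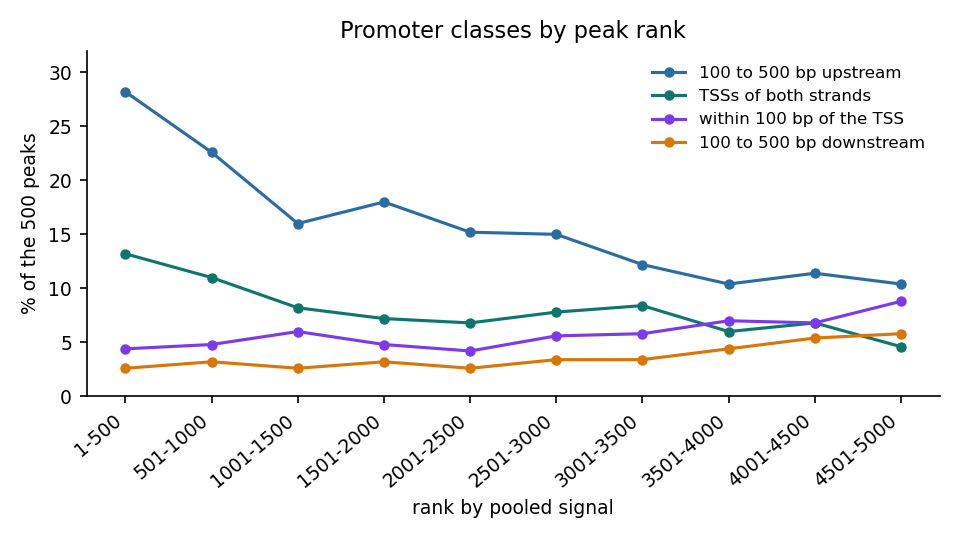
Share (y axis, %) of each block of 500 peaks, ordered by pooled signal (x axis, rank), that falls into each promoter class. The upstream class falls from 28.2% in the first block to 10.4% in the last, and the core class is higher in the last block (8.8%) than in the first (4.4%).

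The ctp peak stood apart from every other. Its pooled signal was 26348, 12.1 times that of the next upstream promoter peak (2180) and 106 times their median. For values by library, the strongest region of that library that overlapped a peak was taken, and its signal was divided by the library's median over all reproducible peaks (relative signal). It was 112 at ctp in replicate 1 and 129 in replicate 3, a mean of 121 ± 12.5 (SD, n = 2), and the rank was first in each. The peak (chrX:4687382-4688791) began upstream of the gene (FBgn0011760, X:4687800-4702034, plus strand) and spanned its first and its inner TSS. Its summit lay in an intron, downstream of the first TSS and 123 bp upstream of the inner of 2 TSSs. The ctp peak thus met the rule through the inner TSS only. Both libraries placed the summit upstream of that TSS, at 134 bp in replicate 1 and 123 bp in replicate 3.

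Next came px (plexus, a wing vein gene), with relative signals of 10.5 in replicate 1 and 9.69 in replicate 3. CG18549 followed at 8.32 and 9.36, and mRpL41, a subunit of the mitochondrial ribosome, at 9.19 and 8.16. Fkbp14, a prolyl isomerase of the endoplasmic reticulum, stood at 6.56 and 8.39. Together with ctp these genes held 5 of the 15 highest peaks of the whole list. The libraries differed little over this group, and no gene in it came near to ctp.

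Further strong peaks lay at genes of many kinds. CG31145 had relative signals of 7.64 and 7.21 in replicates 1 and 3, and ph-p (polyhomeotic proximal, a subunit of Polycomb repressive complex 1) had 7.28 and 7.95. The neighbouring near-identical copy ph-d had 0.936 and 0.556, and reads of the pair may be hard to assign, so both values are uncertain. CG1635 had 7.05 and 7.08, and RluA-1, a pseudouridine synthase gene, 6.35 and 7.14. Metabolic and signalling genes were among the others: Gapdh2, a glycolytic enzyme, had 6.46 and 7.02, gish, a casein kinase, 5.79 and 6.79, and aay, a phosphoserine phosphatase, 5.58 and 6.11.

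Toll-7, a Toll-family receptor, had 6.67 in replicate 1 and 6.08 in replicate 3, and E23, an ABC transporter, had 5.66 and 5.63. The RNA-binding proteins msi and larp had 5.34 and 5.64, and 5.24 and 5.38. PAN3, a subunit of a poly(A) deadenylase, had 5.18 and 5.93. Rtnl1, a reticulon that shapes the endoplasmic reticulum, had 4.95 and 5.48 at its highest peak, and CG1888 and Tina-1 lay between 6.02 and 7.43 in both libraries. In each library all 20 of these peaks were over 4 times the median peak.

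**Figure D3:**
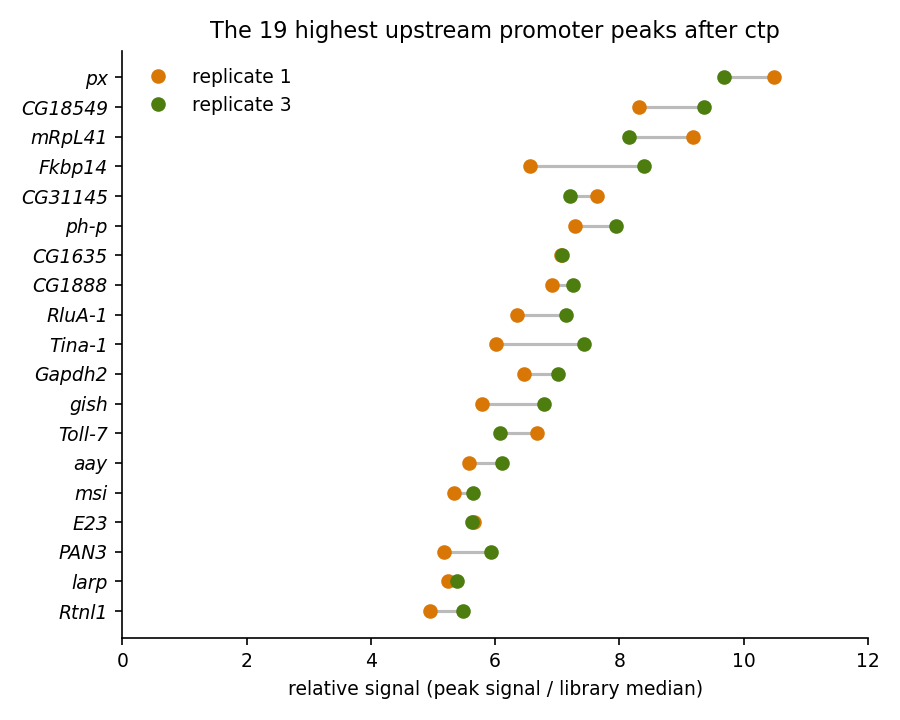
Relative signal (x axis, peak signal over the library's median) in replicate 1 (orange) and replicate 3 (green) at the 19 upstream promoter peaks of highest signal after ctp, with a grey line joining the 2 values of a peak. The values run from about 5 to 10.5, the libraries lie close together, and ctp (112 and 129) would lie far off the axis.

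Over the 777 upstream promoter peaks found in both libraries, the rank correlation of the relative signals was 0.83 (Spearman's rho), against 0.76 over the other peaks, as a description of peaks that share 2 libraries. A difference of over 1 on the log2 scale was seen at 45 of 777, or 5.79%, beside a background of 4.32% over all peaks in both libraries. Of these, 20 (2.57%) were higher in replicate 3, beside a background of 2.77% for that direction, and 25 (3.22%) were higher in replicate 1, beside a background of 1.55%. With ranks in place of signals 109 of 777 differed, or 14.0%, beside 8.15% of all peaks. A given ratio of ranks spans fewer places near the top of a list, where this class was most frequent. The part of rank position in the 14.0% was not tested. In the stronger part of the list, the 2542 peaks of highest signal, 11 of 489 differed in signal, or 2.25%, beside a background of 1.3%. Among core peaks the split was 22 higher in replicate 3 and 2 higher in replicate 1. The share of differing peaks depended on signal: over 5 equal groups by signal, it was 12.3% in the lowest (19 of 154 with a region in both libraries) and 0.629% in the highest (1 of 159). No region was found in at least 1 library for 28 peaks, or 3.48%, of which 26 lacked one in replicate 1, beside a background of 3.54%.

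The widest difference was at P5CDh1, a gene of proline breakdown, with relative signals of 0.567 in replicate 1 and 2.80 in replicate 3 (log2 difference 2.30, pooled signal 593). The region used in replicate 1 had its summit 408 bp upstream of the TSS and that in replicate 3 had it 207 bp upstream, so the values come from regions with different summits. Atet, an ABC transporter gene, went the other way with 1.42 and 0.413, as did shn (schnurri, a transcription factor of Dpp signalling) with 1.12 and 0.348, and SsRbeta, of the protein translocation machinery, with 1.37 and 0.432. Summits differed there too, at 465 and 599 bp for this shn peak and at 267 and 36 bp for SsRbeta. At sqz, a zinc finger gene, the values were 0.338 and 1.07. Apart from P5CDh1 these peaks had pooled signals of 162 to 189, below the median of the class. At CG42240 replicate 1 gave 2.67 and replicate 3 no region. The reverse held for tex (2.67 in replicate 3), mrj (2.32), a DnaJ chaperone gene, CG10165 (1.94) and Kah (1.52), a Snail-family factor.

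**Figure D4:**
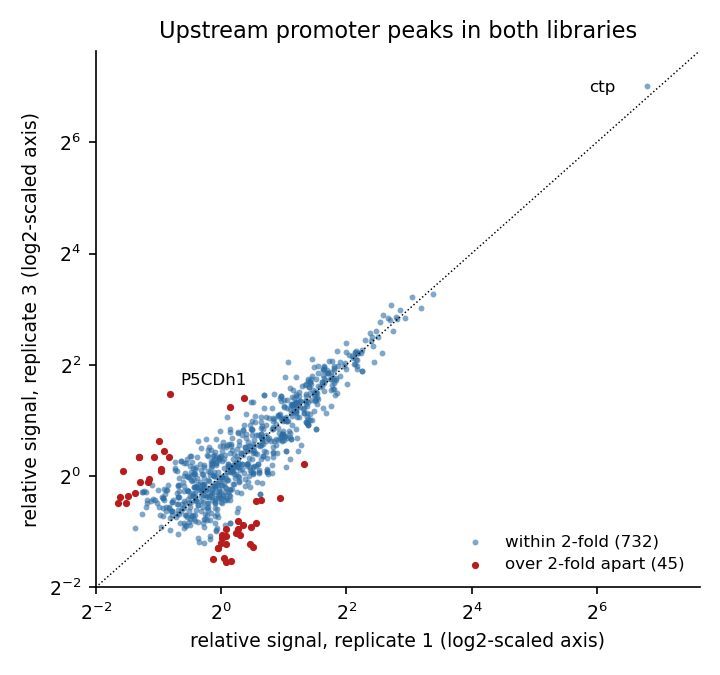
Relative signal in replicate 1 (x axis) and replicate 3 (y axis) of the 777 upstream promoter peaks with a region in both libraries, on log2-scaled axes with the line of equality; the 45 that differ by over 1 on the log2 scale are red. Strong peaks lie along the line, with ctp alone at the upper right, and the red points lie mostly at low signal.

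The DNA under the summits was rich in A and T. The 101 bp windows held 68.2% ± 8.35 A+T (SD over 805 windows), against 59.8% in windows centred 300 bp farther upstream and 53.5% in those 300 bp towards and into the gene. In 66.2% of cases the summit window held more A+T than both of its flanks. That share was 62.1% over all peaks, 74.4% for bidirectional, 50.5% for downstream and 23.1% for core peaks. At 79426 windows at matched distances upstream of 15948 TSSs with no reproducible summit within 1000 bp (unbound promoters), the means were 61.4% for the window and 59.8% and 56.8% for its flanks. With each library's own summits the windows held 68.9% in replicate 1 and 67.3% in replicate 3, above their flanks in each.

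High A+T was common to most peaks of the list, which held 66.3% over all 5085. Bidirectional peaks held 68.6%, downstream peaks 63.5% and peaks of no promoter class 66.5%. Core peaks differed, with 58.1%, below the 64.0% of the DNA 300 bp upstream of them. In steps of 20 bp along the gene, the mean for upstream promoter peaks was highest, 69.1%, 20 bp upstream of the summit and lowest, 52.7%, 260 bp downstream of it. Over 5 equal groups by signal, the summit windows held 65.5% A+T in the lowest group and 70.9% in the highest, while the downstream flanks stayed between 53.3% and 54.0%. Across peaks, the rank correlation between A+T and signal was 0.22, and it was 0.14 over the other peaks. The strongest peak, ctp, lay at the opposite end of that trend.

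**Figure D5:**
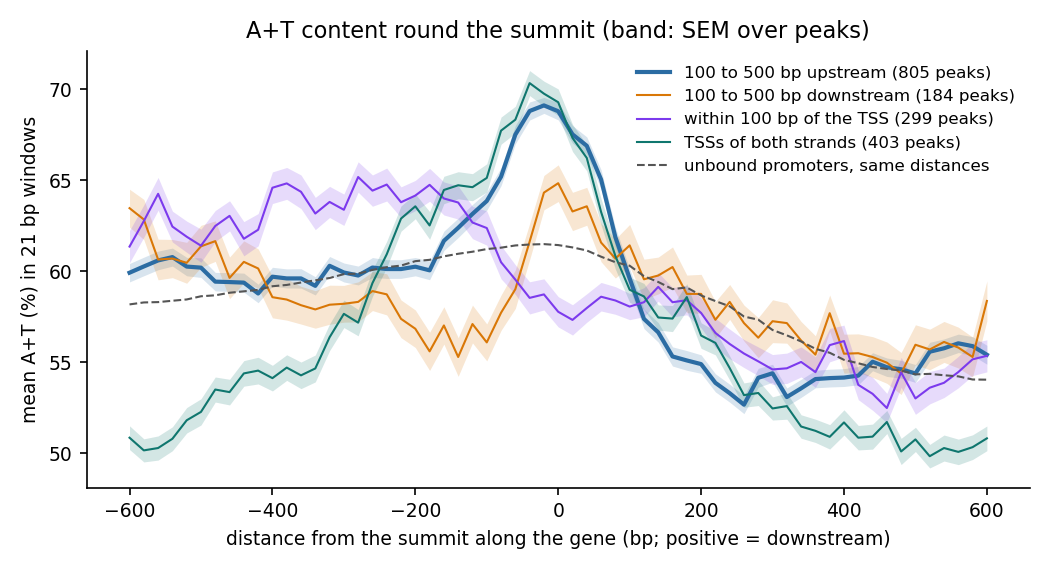
Mean A+T (y axis, % in 21 bp windows) by distance from the summit along the gene (x axis, bp) for upstream, downstream, core and bidirectional peaks and for matched positions at unbound promoters; bands are the standard error over peaks. The upstream class has a narrow maximum of 69.1% 20 bp upstream of the summit and a minimum of 52.7% downstream. The bidirectional class has a like maximum (70.3%), and core peaks have none. Positions at unbound promoters are not aligned on a summit, so their curve could show no narrow maximum and serves for its level only.

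The A+T content lay in part in uninterrupted runs. A run of at least 10 A/T bases was present in 60.0% of the windows, in 35.5% of the upstream and 20.5% of the downstream flanks, and in 40.3% of the unbound windows. Core peaks had such a run in 30.8% of windows, downstream peaks in 38% and bidirectional peaks in 64.3%. Over all peaks the share was 51.4%, so such runs were common in the whole list. Among all 6-letter words, counted on both strands after the data had been seen, AAATAT showed the greatest gain over the flanks: it was in 40.6% of the windows, 15.5% of flank windows and 23.0% of unbound windows. The word TTTAAA, present in 24.3%, had 3.04 times its share in the flanks and 1.65 times that in unbound windows. Of words with at least 2 G or C bases, ATATGC and TATGCA had the greatest gain over the flanks, by the same margin. They were in 9.07% and 8.45% of windows, 4.60% and 3.98% of flanks, and 6.22% and 6.73% of unbound windows.

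Motifs of known fly promoter factors were searched on both strands in the same windows. A motif match is a description of letters and not evidence of a bound factor. The DRE (TATCGATA) was in 4 of 805 windows (0.497%), against 5.35% of core windows and 0.5% of unbound windows at matched distances. The share was 4.47% for bidirectional and 0.543% for downstream peaks, and 0.944% over all peaks. Part of the M1BP motif (GGTCACAC) was in 0.373%, against 3.01% of core and 0.217% of unbound windows. For this word the share was 1.24% for bidirectional peaks and 0.492% over all peaks, and no downstream window held it. The BEAF-32 word CGATA, which forms part of the DRE, was in 12.9% and in 12.5% of unbound windows, so its share was close to that of unbound promoters. It was one of the words in the ctp window printed above.

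The words CACGTG (E-box), CAGCTG (Ohler motif 5), CAGGTAG (Zelda) and AGGTGGCG (part of the CTCF motif) were in 0.745%, 2.61%, 0.248% and 0.621% of the windows and in 1.14%, 3.79%, 0.635% and 0.229% of unbound ones. Part of the Pho motif, GCCAT, was in 12.3% and 16.6%. Words made of A and T were more frequent than at unbound promoters, in this class as over all peaks. TATAAA was in 26.0% of windows, 22.4% of those of all peaks and 16.4% of unbound ones. AATATTTA was in 5.96%, 6.51% and 3.33%, and ATATTTAA, which overlaps it by 7 letters, in 5.96%, 4.62% and 3.23%. The window of ph-p printed above carries both of these 8-letter words.

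GAGA repeats were more frequent in the flanks than in the windows under the summits. GAGAG, the word of the GAGA factor (Trl), was in 12.8% of the summit windows, close to the 12.5% of unbound windows, but in 21% of the flanks 300 bp upstream and 24.6% of those 300 bp downstream, where unbound promoters had 10.5% and 12.8%. In wider windows, 100 bp either side of the summit, the share was 29.7% and that of unbound promoters 22.4%, so the closeness held for the narrow window only. In the 101 bp that end at the TSS, which is where position is the same for every class, GAGAG was in 36.1% of 765 distinct TSSs with an upstream promoter peak. The share was 21.4% for core peaks, 30.6% for downstream peaks, 10.7% for bidirectional peaks and 15.4% over 19253 protein-coding TSSs. In those same windows the DRE was in 1.7%, against 9.7% for core, 8.73% for bidirectional and 5.2% over all TSSs. The M1BP word was in 1.31%, against 4.35%, 4.49% and 2.63%. Downstream peaks were close to the upstream class for these words, with 2.19% for the DRE and 1.64% for the M1BP word.

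At the TSS itself, TCAGT, a common core of the fly initiator, was read on the strand of the gene within 10 bp of the start, a choice made after other results had been seen. It was at 25.2% of the 765 TSSs, against 10.4% for core peaks, 14.8% for downstream peaks, 6.73% for bidirectional peaks and 13.1% over all protein-coding TSSs. A TATAAA 45 to 15 bp upstream of the start was at 4.05%, below the 7.77% over all TSSs. The other peak classes were below it too, with 3.68% for core, 3.28% for downstream and 1.75% for bidirectional peaks. Thus GAGAG and TCAGT were more frequent at these promoters than over all TSSs, and the DRE, the M1BP word and the TATA box were less frequent. These shares are descriptions of letters, and the genes with peaks also differed from all genes in other ways, given next.

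Genes with an upstream promoter peak were long and had several start sites. Of the 718 genes, 58.9% had more than 1 annotated TSS, against 26.5% of 13945 protein-coding genes, and their median length was 7.73 kb against 2.17 kb. Genes with a core peak had more than 1 TSS in 68.9% of cases and a median length of 4.68 kb. A gene with more TSSs also offers more sequence that can meet the rule, and its part in these shares was not tested. The peak preceded the first TSS of the gene at 487 peaks (60.5%) and an inner one at 318 (39.5%), as at ctp. Median signals were 240 at first and 264 at inner TSSs.

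By location, 417 summits lay outside genes, 318 inside the span of their own gene, 42 inside another gene of the opposite strand and 28 inside another gene of the same strand. Introns held 341 of the 805 summits and coding sequence held 1. For the 417 outside genes, the upstream neighbour was transcribed in the same direction for 267, with its end a median of 819 bp away, and was divergent for 150, a median of 3480 bp away. The rule left out summits with an opposite-strand protein-coding TSS within 500 bp, and so the closest divergent neighbours. The split by direction and the 2 distances were thus in part fixed in advance. Non-coding TSSs of the opposite strand lay within 500 bp of 17 summits, which the rule allowed. The 6 arms held 5 (chromosome 4) to 184 peaks (3R), and the class made up between 14.0% (3L) and 25% (5 of 20, chromosome 4) of all peaks on an arm.

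Several genes carried more than 1 of these peaks: 72 had 2, 6 had 3, and Rtnl1 had 4. At Rtnl1 the peaks preceded 4 distinct TSSs, by 160 to 328 bp, and their relative signals ran from 0.757 to 4.95 in replicate 1 and from 1.06 to 5.48 in replicate 3. The phosphatase gene Ptpmeg2 had 3 peaks at 3 TSSs, 187, 199 and 202 bp upstream, with 3.37, 3.32 and 4.45 in replicate 1 and 2.93, 4.18 and 4.29 in replicate 3. The cAMP phosphodiesterase gene dnc had peaks 273 to 324 bp upstream of 3 TSSs, with 1.53 to 3.49 in replicate 1 and 1.05 to 3.32 in replicate 3. Moe, the fly ezrin, radixin and moesin protein, also had 3 at separate TSSs. At larp 1 strong peak (pooled signal 1141) stood beside 2 weak ones (131 and 138). At CG6231 and MFS10, 2 of the 3 peaks preceded the same TSS and took their library values from the same region. Over the class 74 peaks overlapped another of the class, and 72 shared a region with another in each library, so not all 805 are separate observations.

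Gene lists were set beside the background of 5.15% of protein-coding genes with an upstream promoter peak. Of 92 genes for cytosolic ribosomal proteins, 2 had one (2.17%), whereas 38 had a core peak and 27 a bidirectional one. They were RpS23, with relative signals of 1.61 in replicate 1 and 1.36 in replicate 3, and RpLP2, with 0.890 and 1.01. Counting only the 53 of these genes whose sequence could meet the rule, the share was 3.77%, against 7.04% over all such genes. Of 73 mitochondrial ribosomal protein genes 1 had an upstream promoter peak, the strong one at mRpL41, but only 19 could meet the rule, of which it made up 5.26%. Of 48 proteasome genes, 27 of which could meet the rule, 1 had such a peak (2.08%): Rpn11, the deubiquitinating subunit of the lid (0.527 and 0.759). Of 52 translation factors 3 had one (5.77%), with eIF2beta the highest (1.65 and 1.35). Of 33 genes for RNA polymerase II and its general factors none did, nor did any of 19 germline and piRNA genes, where 16 and 14 could meet the rule. The gene ctp was the only one of 23 dynein and dynactin genes (4.35%).

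Tetraspanins, membrane proteins that organise receptors at the cell surface, led the 24 lists with 8 of 34 genes, or 23.5%. Tsp5D had relative signals of 3.12 in replicate 1 and 3.78 in replicate 3, and Tsp42El had 2.61 and 3.33. Tsp42El, Tsp42Eg, Tsp42En, Tsp42Eo and Tsp42Er lie in a cluster of tandem copies, so these 5 are not independent genes. Their summits lay 229 to 320 bp upstream of the TSS. The other 2, Tsp29Fb and Tsp74F, were near the median peak, with 1.39 and 1.08, and with 1.01 and 1.21.

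After the tetraspanins, the following had the highest shares among the 24 lists, beside a background of 5.15%. Of 28 circadian and nuclear receptor genes 6 had an upstream promoter peak (21.4%), among them vri (2.67 in replicate 1 and 2.02 in replicate 3) and Pdp1 (2.36 and 1.37), a pair of bZIP factors of the clock, and eg (1.03 and 1.24), a receptor-family factor of neurons. Of 20 muscle genes 4 did (20%): Msp300, which anchors nuclei, had 2.38 and 2.70, sls, which encodes fly titin, had 1.58 and 1.86, and Act87E, a muscle actin, had 0.974 and 1.25. Of 21 genes of gut, fat body and hemocytes 4 did (19%), with fkh at 2.11 and 4.15, and with Hnf4, a receptor of lipid metabolism, at 2.08 and 1.60 and at 1.41 and 1.78 for 2 start sites.

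Among stress and genome maintenance genes, 3 of 22 chaperone genes had an upstream promoter peak (13.6%, beside a background of 5.15%). All 3 were small heat shock genes of 1 cluster, with Hsp27 highest (4.41 and 4.65), then Hsp26 (1.76 and 1.15) and Hsp22 (1.42 and 1.02). Of 45 DNA damage response genes 4 had one (8.89%), among them p53 (1.10 and 1.81) and spel1, a mismatch repair gene (1.42 and 1.38). Only 19 of the 45 could meet the rule, and 21.1% of those had a peak, against 7.04% over all such genes. Of 32 cell cycle genes 3 had one (9.38%). They were E2f1 (0.828 and 1.12), its partner Dp and the checkpoint gene BubR1 (0.675 and 0.712). Dp had no region in replicate 1 and 1.50 in replicate 3. Of 29 segmentation and Hox genes only the transcription factor bcd had one (3.45%, below the background). It stood at 1.03 in replicate 1 and 0.362 in replicate 3.

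Of 24 neuronal genes 2 had an upstream promoter peak (8.33%, beside a background of 5.15%). They were elav, a neuronal RNA-binding protein (3.61 and 4.74), and moody, a receptor of the blood-brain barrier (1.30 and 2.64). Of 37 signalling genes 3 did (8.11%): the EGF-type ligand spi (2.83 and 2.58), the FGF receptor htl (1.19 and 1.14) and Notch, N (0.889 and 0.793). In the list of actin, adhesion and junction genes 3 of 34 did (8.82%). The polarity gene sdt was highest (1.77 and 1.99), followed by pyd (1.14 and 0.907) and scrib (0.498 and 0.846). Of 33 genes of the secretory pathway 2 did (6.06%), Fkbp14 and Rab11 (0.868 and 0.781). Among chromatin regulators, 2 of 20 architectural protein genes had one (10%), lola (2.03 and 1.65) and Trl, which encodes the GAGA factor (1.55 and 1.24). So did 2 of 27 Polycomb and trithorax genes (7.41%), the copies ph-p and ph-d.

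Some large families had shares below the background of 5.15%. Of 230 chemosensory receptor and odorant-binding protein genes 2 had an upstream promoter peak (0.87%), Obp99b (2.12 and 1.75) and Obp83g (0.826 and 0.530). Of 122 cuticular protein genes 2 did (1.64%), Cpr65Av (0.622 and 0.895) and Cpr65Ea (0.753 and 0.739). Of 83 cytochrome P450 genes 2 did (2.41%), Cyp310a1 (1.27 and 1.30) and Cyp317a1 (0.629 and 0.769). The list counts are small, and the genes within a family may share a cluster.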

How the data were processed

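Peak lists of 2 ChIP-seq libraries were analysed. Per the deposited file listings, the authors called regions for each library and for both pooled against a control alignment, and kept a list by irreproducible discovery rate (IDR). Neither aligner nor caller is given in the sources used here. Peak signal, as deposited by the authors, has a separate scale in each list and no stated unit. The deposited −log10 q values are tied for many peaks and were not used. The IDR list in dm6 holds 5085 summits, and the 5085 strongest regions of each replicate were set beside it. Summits were read from the deposited offsets. The dm3 lists were not used.

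Transcripts of Ensembl release 115 (BDGP 6.54) were used, leaving out transposable elements, on 2L, 2R, 3L, 3R, 4 and X, with the release 6 assembly. Where TSSs tied, protein-coding ones came first, then those downstream of the summit, then gene ID order, and 24 of the 805 peaks had tied genes. Relative signal used overlaps of at least 1 bp. Windows were 50 bp either side of the summit, with flanks 300 bp away; unbound positions were weighted to the distances of the 805 peaks in 8 bins. Printed sequences avoid windows that overlap a UTR. The peak set, gene lists and the 8-letter A/T words were chosen with earlier results of these data known. Named genes were ctp, the 20 highest peaks, up to 3 peaks per gene list, 5 peaks each of greatest difference or absence between libraries, and those at the borders. Classification, overlap and word counts were tested on simulated data. Alternatives changed the position rule, the summit, the annotation, the peak set, the windows and the library measure. The work was done in Python 3.11.15 with scipy 1.17.1, matplotlib 3.10.9, numpy 2.4.6 and pandas 2.3.3.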

Additional observations from a re-analysis of the deposited data

How the results depend on the processing

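Of 60 alternatives of 9 results, 37 were called unchanged and 23 moved. Unchanged meant within the spread between libraries, within 1.5 times the count or within the interval of the share. A change of direction was looked for in the A+T excess only, and none was seen there. The count of 805 upstream promoter peaks became 522 with only the 5′-most TSS of each gene (491 shared), 527 at 100 to 300 bp and 504 in the stronger 2542 peaks, and ran from 798 to 802 with either library alone. The median position of 245 bp upstream (-245) became -233 with the 5′-most TSS, -228 at 50 to 500 bp and -194 at 100 to 300 bp, and ran from -254 to -238 with either library alone. The signal ratio of 1.24 became 1.18 with the 5′-most TSS, 1.25 with no opposite-strand TSS of any kind, 1.21 at 50 to 500 bp, 1.26 at 100 to 300 bp and 1.20 in the stronger peaks, and was 1.22 with either library alone (1.215 to 1.221). The share in the top 500, 17.5%, became 21.4% at 100 to 300 bp and ran from 17.8% to 18.9% by library. It was 28.0% in the stronger peaks, which cannot be set against 17.5%. The 500 make up a larger part of 2542 peaks than of 5085, so the background there is above the 9.83% of the full list. The excess of A+T over the mean of the flanks, 11.5 percentage points, became 12.8 in the stronger peaks and 9.43 with 100 bp either side, and ran from 10.5 to 12.3 by library. The share of peaks differing between libraries, 5.79% (95% Wilson interval 4.36 to 7.66), became 2.25% in the stronger peaks (1.3% over all of these) and 14.0% with ranks in place of signals (8.15% over all peaks). With 100 bp either side, AATATTTA was in 9.57%, GAGAG in 29.7% and TATAAA in 41.9% of windows, and in 6.53%, 22.4% and 30% of unbound ones. The causes of the other changes were not tested. With 1 library left out no difference between libraries exists. No paired analysis was possible because there was 1 group. Depth is unknown, so weak peaks cannot be told from noise, and intervals cover counting only.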
